A study of Mus musculus with 9 samples.

Results

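Cohesin in DP thymocytes was present at 5219 sites where CTCF had been called in B-lineage cells but cohesin had been called neither in pre-B cells nor in DN thymocytes. These sites were found by merging the autosomal peaks of the 3 lists for Rad21, a cohesin subunit, wherever they overlapped by 1 bp or more, and by keeping merged sites with a DP peak only that overlapped a CTCF peak of pre-B cells or of pro-B cells cultured with IL7. They were 11.5% of the 45491 merged Rad21 sites and 34.1% of the 15297 sites called in DP alone. Sites called in DP alone were 33.6% of all merged sites. The sites were thus chosen by the peak calls of all 5 lists, and their rank in the DP list and in the CTCF lists is given as a description. They are called DP-only CTCF sites from here on, with the CTCF call always taken from B-lineage cells, since CTCF in thymocytes was not analysed here.

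All mice were C57BL/6 and RAG-deficient, so that no antigen receptor (AgR) locus had rearranged by itself in any of the cells. The pre-B cells were RAG-/-µ+, that is, bone marrow cells that carry a rearranged IgM transgene. The cultured pro-B cells came from RAG1-/- bone marrow and spent 7 days in culture with IL7. DN (CD4-CD8-) thymocytes were taken from Rag1-/- mice, and DP (CD4+CD8+) thymocytes from Rag1-/- mice with a TCRb transgene. Mice were 6 to 14 weeks old for bone marrow and 4 to 8 weeks old for thymocytes, of both sexes for bone marrow, and each antibody and cell type had 1 library. Hence there is no measure of the spread between animals, no test between cell types was run, and the intervals given are exact 95% intervals that cover counting error only. A transgene that drives cells past a block stands in for normal differentiation in both the pre-B and the DP cells.

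The Rad21 lists held 36743 peaks in DP, 30488 in pre-B and 9701 in DN, and the CTCF lists 42250 (pre-B) and 71080 (IL7-cultured pro-B). Read depth is unknown for every list, and the DN list is the shortest and ends at the highest score (86.45, against 57.72 in DP and 59.74 in pre-B). A site without a DN or pre-B peak is therefore one not called there. As a check of the labels, all 62 Rad21 sites of the Igκ locus were called in pre-B cells, and none of the 180 sites of the TCRα/δ locus was called in pre-B cells alone.

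CTCF is a zinc finger protein that binds a long, oriented DNA motif, and cohesin is a ring-shaped complex that extrudes loops of chromatin and halts at bound CTCF. Cohesin is also loaded at active promoters and enhancers, where it can be found without CTCF. At AgR loci, where distant V genes must come close to the (D)J segments, both proteins take part in bringing the locus together, and the TCRα genes rearrange at the DP stage.

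The following sequences show the CTCF motif in DP-only CTCF sites of the TCR and Igh loci, at 2 genes of T cells (Rora and Prkcq), at a site with no mismatch and a high DP score (Gm20388) and at one of the 12 strongest sites (near Cd47). Each was read from mm9 on the strand that carries the study's de novo HOMER motif for CTCF, and the capitals mark the best match to that 12-base motif with its mismatched bases included. The first 3 lie in the TCRα/δ locus, at chr14:54620376-54620437, chr14:54036783-54036844 and chr14:53329389-53329450, all on the minus strand and intergenic. The next 2 are from the TCRβ locus near Trbv31 (chr6:41506548-41506609, plus strand) and the Igh locus near the V gene Gm16965 (chr12:116070104-116070165, plus strand). The last 4 lie in an intron of Rora (chr9:68804906-68804967, minus strand), an intron of Prkcq (chr2:11188091-11188152, plus strand), an intron of Gm20388 (chr8:123494425-123494486, minus strand) and between genes near Cd47 (chr16:49938762-49938823, plus strand). The TCRα/δ copies, Rora, Prkcq and Gm20388 were picked for display after their matches had been seen.
TCRα/δ, highest DP score: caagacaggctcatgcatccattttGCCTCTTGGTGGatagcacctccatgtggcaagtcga
TCRα/δ, near Gm13953: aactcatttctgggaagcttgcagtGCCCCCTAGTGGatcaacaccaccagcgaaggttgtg
TCRα/δ, near Trav6d-3: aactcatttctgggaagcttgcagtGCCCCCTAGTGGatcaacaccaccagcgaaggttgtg
TCRβ, near Trbv31: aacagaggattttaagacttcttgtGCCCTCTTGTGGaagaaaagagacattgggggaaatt
Igh, near Gm16965: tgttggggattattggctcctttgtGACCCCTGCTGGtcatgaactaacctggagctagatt
Rora intron: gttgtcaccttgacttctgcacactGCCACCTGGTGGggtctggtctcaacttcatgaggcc
Prkcq intron: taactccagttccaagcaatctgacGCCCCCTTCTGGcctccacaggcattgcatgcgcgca
Gm20388 intron: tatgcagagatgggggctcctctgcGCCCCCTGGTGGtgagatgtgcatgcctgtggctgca
near Cd47: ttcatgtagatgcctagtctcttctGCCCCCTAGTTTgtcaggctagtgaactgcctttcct

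The 2 copies near Gm13953 and Trav6d-3 matched the motif with 0 mismatches and were identical over all 62 bases, with 0 differences. The Rora sequence held 1 mismatch, and those of Prkcq, Cd47, Trbv31, Gm16965 and the strongest TCRα/δ site held 2 each.

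In the DP list, DP-only CTCF sites were mostly weak peaks, as ranked by the peak score. Their median score was 103, at the 34.3 percentile of the DP list, against the 51.0 percentile for the 11330 sites called in pre-B and DP but not DN. The 10078 DP-only sites without CTCF had a median at the 30.1 percentile. Of the DP-only CTCF sites, 70.1% (3659 of 5219) lay in the lower 50% of the DP list, 6.74% (352) in its top 25% and 0.901% (47) in its top 10%. Read the other way, they made up 22.1% of the DP-called sites in the lowest 10% of scores (783 of 3546) and 1.29% in the highest 10% (47 of 3631). Each of the 10 steps held a smaller share than the step below it. In the highest 10%, 84.7% of DP-called sites (3077 of 3631) had Rad21 in all 3 cell types. The lowest member score was 57.73, the bottom of the list, and 187 members scored under 60. As for nearness to the other Rad21 calls, 245 members had a pre-B or DN peak within 500 bp, and the median distance to one was 13606 bp.

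**Figure D1:**
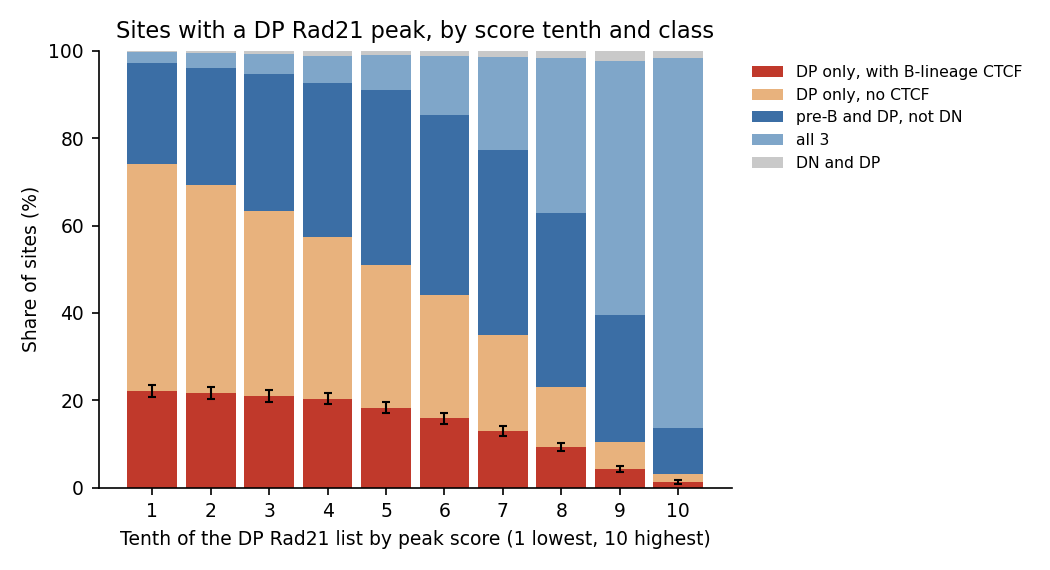
Composition of sites with a DP Rad21 peak, in 10 equal steps of the DP list ordered by peak score (x axis, 1 lowest) and class of site (y axis, share of sites in %). Bars add up to 100% and black lines are exact 95% intervals of the share of DP-only CTCF sites, which went from 22.1% in the lowest step to 1.29% in the highest.

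The CTCF calls came from both B-lineage lists at 2558 DP-only CTCF sites (49.0%, 95% interval 47.6 to 50.4%), from IL7-cultured pro-B cells alone at 2433 (46.6%) and from pre-B cells alone at 228 (4.37%). Where Rad21 was called in pre-B and DP, CTCF was in both lists at 86.3% of the sites (9780 of 11330), and at 86.9% (6943 of 7986) of sites with CTCF and Rad21 in pre-B alone. Among all merged sites, 72.7% overlapped a CTCF peak. Hence 2433 of the DP-only CTCF sites had neither a CTCF nor a Rad21 call in pre-B cells. The IL7 list is the longer of the CTCF lists and ends at the lower score, 50 against 66.97. With it limited to the 42250 strongest peaks, 3413 DP-only CTCF sites were left and the share in both lists was 60.2%. It was 77.5% of the 1600 sites that met the rule with Rad21 lists of equal length.

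CTCF peaks at these sites also ranked low in their own lists. In the pre-B list the median CTCF peak was at the 30.1 percentile (n = 2786), against 65.8 where Rad21 was called in pre-B and DP (n = 9952). In the IL7 list the medians were the 43.4 percentile (n = 4991) and the 77.0 percentile (n = 10346). For sites with CTCF in both lists the IL7 median was 60.2, and for those with IL7 alone 26.4. Seen from the CTCF side, 6.52% of the 41165 autosomal pre-B CTCF peaks (2684) overlapped DP-only Rad21, 63.8% overlapped pre-B Rad21 and 29.1% overlapped no Rad21 peak. The median percentile in the pre-B list was 29.3 for the first of these groups, 67.1 for the second and 21.9 for the third, so that CTCF peaks under DP-only Rad21 were closer in rank to CTCF peaks without cohesin than to those with cohesin in pre-B cells.

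**Figure D2:**
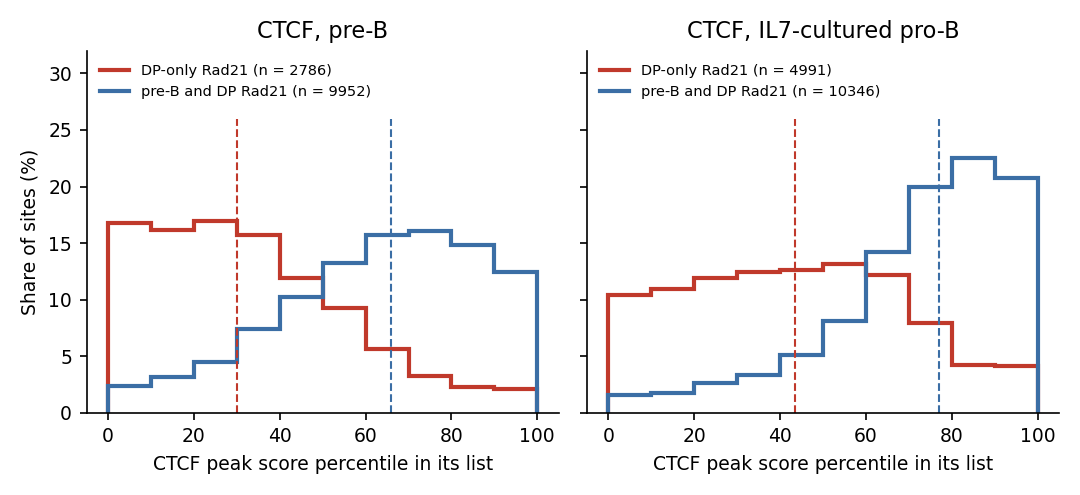
Rank of the CTCF peak at DP-only CTCF sites (red) and at sites with pre-B and DP Rad21 (blue), as the percentile of its score within its own list (x axis) against the share of sites in % (y axis). Dashed lines are medians, 30.1 against 65.8 in the pre-B list and 43.4 against 77.0 in the IL7 list.

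The median distance between the centre of a DP-only CTCF site and that of its CTCF peak was 83 bp for pre-B CTCF and 73 bp for IL7 CTCF, much as at sites shared by pre-B and DP (80 and 72.5 bp). It was larger at promoters, 121.5 and 112 bp, than away from them, 68.5 and 58.5 bp. At the edge of the rule, 64 members overlapped CTCF by fewer than 50 bp, the smallest overlap being 2 bp, and 62 DP-only sites without CTCF lay within 50 bp of a CTCF peak.

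DP-only CTCF sites lay at promoters more often than the 3 other classes of Rad21 site compared here. A promoter was taken as 1 kb on either side of the start of a protein-coding transcript in GENCODE, and 39.0% of the sites (2035, interval 37.7 to 40.3%) overlapped one. The share was 27.1% for DP-only sites without CTCF, 23.3% for sites in pre-B and DP, 11.7% for sites with CTCF and Rad21 in pre-B alone and 21.3% over all merged sites, and none of these intervals overlapped that of the DP-only CTCF sites. The promoters belonged to 2094 protein-coding genes, 9.84% of those annotated. A further 29.0% of sites were in introns, 29.0% were intergenic and 3.07% were in other exons. Promoter sites had a median GC content of 64.7% and 25 CpG in the central 300 bp, and sites elsewhere 48.3% and 3.

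Within the class, the place of a site and its CTCF call differed together. CTCF was in both lists at 42.4% of promoter sites and at 53.3% of those elsewhere, and the 228 sites with pre-B CTCF alone were at promoters in 58.8% of cases. The share at promoters was 34.4% in the lowest of the 10 steps of the DP list (interval 31.0 to 37.8%), 44.5% in step 7 (39.9 to 49.2%), 44.4% in step 8 (38.9 to 49.9%) and 42.6% in the highest (28.3 to 57.8%, 47 sites). It was thus higher in steps 7 and 8 than in the lowest beyond the intervals. CTCF in both lists was found at 46.9% of sites in the lowest step and 44.7% in the highest, with intervals that overlapped. Seen over all sites called in DP alone, CTCF was found at 42.7% of those at promoters and 30.2% of those elsewhere.

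**Figure D3:**
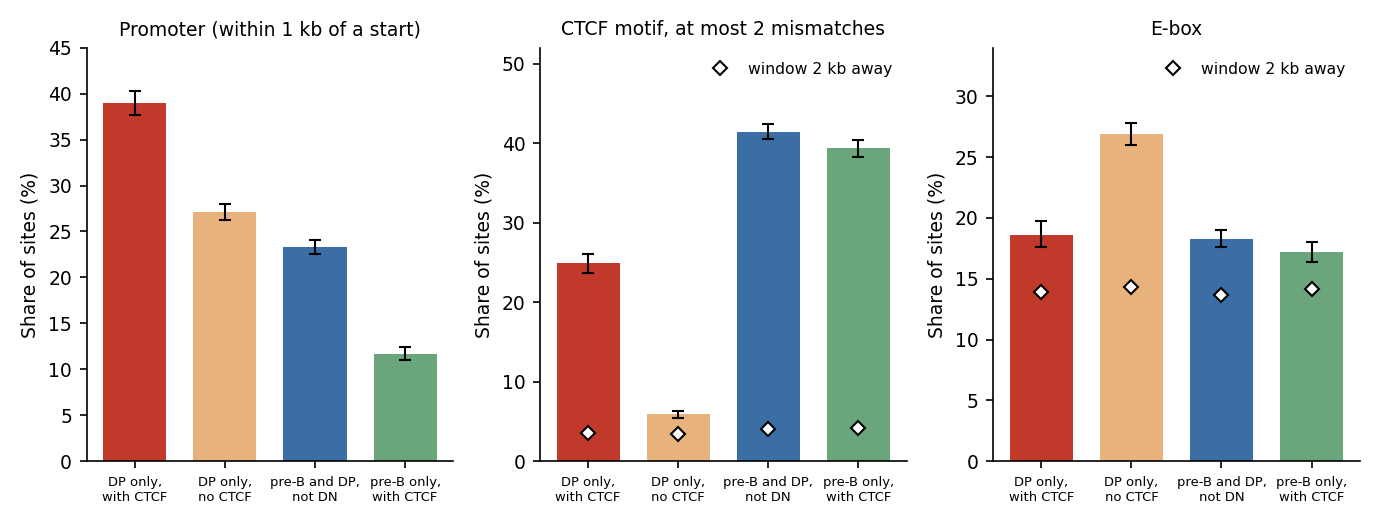
Share of sites (y axis, %) in 4 classes of Rad21 site that lie at a promoter (left), hold the CTCF motif (middle) or hold an E-box (right), with exact 95% intervals as black lines. Diamonds give the share in a window of the same length 2 kb away; DP-only CTCF sites were at promoters in 39.0% and held the CTCF motif in 24.9%.

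The CTCF motif was rarer at DP-only CTCF sites than where pre-B cells also had Rad21. With at most 2 mismatches it was found in the central 300 bp of 24.9% of them (1298 of 5219, interval 23.7 to 26.1%), and in 3.54% of windows 2000 bp away. It was found at 41.4% of sites in pre-B and DP, 39.4% of pre-B sites with CTCF, 5.86% of DP-only sites without CTCF and 32.3% of all merged sites. Sites with CTCF in both lists held it in 33.6%, those with IL7 alone in 17.2% and those with pre-B alone in 9.21%. A match was found at 17.3% of promoter sites and 29.7% of sites elsewhere, and the motif share did not change with DP rank beyond the intervals (24.5% in the lowest 10% and 27.7% in the highest 10%). In all, 35 sites matched with 0 mismatches, 264 with 1 and 999 with 2. Of matches with an unambiguous strand, 626 were on the plus and 631 on the minus strand.

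Short motifs of factors that act in T cells were read as letters on both strands of the same windows. The E-box CAGCTG, which E proteins bind, was at 18.6% of DP-only CTCF sites (interval 17.6 to 19.7%) and at 26.9% of DP-only sites without CTCF, against 13.9% and 14.3% in windows 2000 bp away. The RUNX motif TGTGGTT was at 8.70% against 12.03% of these classes, and the TCF motif CTTTGA at 13.9% against 20.02%. Windows 2000 bp from the DP-only CTCF sites held RUNX letters in 8.18% and TCF letters in 20.5%. Split by place, RUNX letters were at 11.4% of sites away from promoters (interval 10.3 to 12.6%) against 7.66% of their neighbouring windows, and at 4.42% of promoter sites against 8.99%. TCF letters were below the neighbouring windows in both places, at 17.1% against 20.7% away from promoters and at 8.89% against 20.2% at promoters. The GATA motif AGATAA was at 8.66%, below the 15.6% of the neighbouring windows, whose base composition was not matched. The ETS motif CGGAAG stood at 27.8% of promoter sites and 6.63% of sites elsewhere, and all merged Rad21 sites gave 23.4% and 6.64%. Pooled over all places, E-box, RUNX and TCF letters stood at 18.3%, 8.40% and 16.5% of sites in pre-B and DP. In these letters the DP-only CTCF sites were nearer to that class than to the DP-only sites without CTCF. In ETS letters (14.9%) they were nearer to the DP-only sites without CTCF (13.3%) than to the sites in pre-B and DP (10.3%). In GATA letters they were below both classes (11.1% and 11.3%). The classes also differed in their share at promoters, which these pooled shares do not separate. None of these 5 strings contains another, though the RUNX letters can share TGTGG with a CTCF match, and a match describes the letters only.

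The strongest of the DP-only CTCF sites were at gene promoters and at a few sites far from any promoter. The first in the DP list spanned the promoter of Slco3a1, a gene for an organic anion transporter, with a DP score of 2279 (rank 207). CTCF stood there at the 61.9 percentile in pre-B and 72.0 in IL7-cultured cells. The second, with a DP score of 1752, was intergenic and 173094 bp from Lef1, an HMG-box factor of early T cells, with CTCF in the IL7 list alone (45.6 percentile).

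Promoters of Mfhas1 (DP score 1744), Vps13d (1576) and Ppm1h (1561), which encodes a phosphatase, followed. Of these 3, only Vps13d lacked pre-B CTCF. The promoter of D8Ertd82e (1392) had CTCF in both lists, and that of Klf3 (1354), a Krüppel-like repressor, in the IL7 list alone.

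A site with a DP score of 1483 was intergenic on chromosome 18, 413120 bp from Sall3. The remaining 3 of the 12 strongest held the CTCF motif. The first was the intergenic TCRα/δ site, with a DP score of 1250 and a percentile of 96.1, at chr14:54619980-54620828. The second was 23458 bp from Cd47, which encodes a surface protein that keeps cells from being engulfed (DP score 1209). CTCF at the Cd47 site was near the bottom of both lists, at the 2.41 percentile in pre-B and 14.5 in IL7-cultured cells. The third was in an intron of Dopey2 (DP score 1175, CTCF at the 33.2 and 52.5 percentiles).

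Genes of T-cell receptor signalling were near 34 DP-only CTCF sites, 12.4% of the 274 Rad21 sites within 20 kb of them (interval 8.75 to 16.9%). Over all protein-coding genes the share was 12.2% (4482 of 36857), so that the share near these genes was that of the background. At least 1 site was near 20 of the 30 genes (66.7%), against 26.3% of all genes. Such counts of genes also grow with the number of Rad21 sites near each gene. The strongest was over the promoter of Gpr162, not that of Cd4, at DP percentile 89.3 with CTCF in the IL7 list alone (41.3). It lay 76 bp from the gene body of Cd4, which encodes the CD4 coreceptor. Then came a site 13263 bp from Cd8b1, the CD8 beta chain (DP percentile 87.2, IL7 CTCF at 23.6), and the promoter of Prkcq, the protein kinase C of the T-cell synapse (82.1, IL7 CTCF at 35.5). The fourth, at the Rsbn1 promoter 1239 bp from Ptpn22, a phosphatase that dampens receptor signals, had CTCF in both lists (DP percentile 78.5). All 4 of these sites were absent from the pre-B and DN Rad21 lists by the rule, and Cd8a, 17 sites with 16 of them DP-only without CTCF, had none.

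Near T-lineage transcription factors 33 of 299 sites were DP-only CTCF sites (11.04%, interval 7.72 to 15.1%), and they reached 18 of 29 genes. The interval took in the 12.2% of all protein-coding genes, of which 26.3% had such a site nearby. The promoter of Runx1, which silences and activates T-cell genes, held the strongest (DP percentile 94.8, IL7 CTCF at 26.8). An intron of Ets1 (85.5), the promoter of Ikzf1, the gene of Ikaros (83.0), and the promoter of Notch1, the receptor that commits cells to the T lineage (73.8), followed. Only Ikzf1 had pre-B CTCF, at the 4.68 percentile. Bcl11b (20 sites, 17 of them DP-only without CTCF) and Tcf7 (18 sites, 15 of them DP-only without CTCF), both needed for T-cell commitment, had no DP-only CTCF site.

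Genes known for high expression at the DP stage had 32 of 219 (14.6%, interval 10.2 to 19.997%), near 17 of 24 genes. This interval too took in the background of 12.2% of sites, and the background for genes was again 26.3%. The lists share some genes, and the sites at Cd4 and Cd8b1 count again here. Arpp21 had the most, 6 sites, all with CTCF in the IL7 list alone, and its promoter held the strongest (DP percentile 94.9, IL7 CTCF at 33.7). The promoter of Plxnd1, which guides maturing thymocytes, was at 85.4. The following sites were singled out after their values had been seen. A site in an intron of Rag1, which encodes the recombinase itself, was at chr2:101486076-101486486 with DP percentile 35.7 and CTCF in the pre-B list alone (29.6). Dntt, which encodes the enzyme that adds bases at V(D)J joints, had a site 1767 bp away at DP percentile 63.8, also with pre-B CTCF alone (14.1), which held the CTCF motif with 2 mismatches.

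Over the 3 T lists together there were 90 different DP-only CTCF sites. Their median DP percentile was 57.4, from 0.0572 to 94.9, against 34.3 for all DP-only CTCF sites. CTCF was in the IL7 list alone at 56 of them (62.2%) and in both lists at 29 (32.2%). Promoters held 44 (48.9%), and 15 (16.7%) had the CTCF motif. DP-only sites without CTCF near the same genes were not ranked. The higher DP percentile is thus not shown to be particular to the class. The other DP-only sites were more frequent near the T lists. Sites called in DP alone made up 63.5 to 71.2% of all Rad21 sites near the 3 lists, against 33.1% near all protein-coding genes. Of those sites 18.5% overlapped CTCF near receptor signalling genes (34 of 184), 17.4% near transcription factors (33 of 190) and 20.5% near DP-stage genes (32 of 156), against 36.7% near all protein-coding genes (interval 35.9 to 37.6%). The interval of each list lay below it, the highest bound being 27.7%.

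The share near T-cell genes differed between settings of the list lengths. With all 3 Rad21 lists limited to their 9701 strongest peaks, 22.1% of the sites near receptor signalling genes (17 of 77), 19.8% near T-lineage factors (17 of 86) and 21.1% near DP-stage genes (15 of 71) met the rule, against 11.3% near all protein-coding genes (1371 of 12141, interval 10.7 to 11.9%). The intervals of the 3 lists began at 13.4%, 11.96% and 12.3%. Over the genome, only 394 of the 1600 sites that met the rule in this setting were among the 5219. The other 1206 overlapped a pre-B Rad21 peak of the deposited list. With only the DP list so limited, the shares were 5.93% (7 of 118), 2.99% (4 of 134) and 7.53% (7 of 93), against 1.28% near all protein-coding genes (interval 1.15 to 1.43%), and the interval of the second list, from 0.819%, took in the background. With scores of at least 100 they were 10.8%, 9.13% and 12.3%, against 10.7%. The last 2 settings were added after the data had been seen.

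Near B-lineage genes 8 of 162 sites were DP-only CTCF sites (4.94%, interval 2.16 to 9.50%), below the 12.2% of all protein-coding genes. A further 38.9% of the sites there were called in pre-B alone, against 19.96% near all protein-coding genes. With the Rad21 lists limited to equal length the share was 10.8% (7 of 65), against 11.3%. They were near 5 of 33 genes (15.2%, against 26.3% of all protein-coding genes). Bach2, a repressor in both B and T cells, had 4 of them, the strongest at its promoter (DP percentile 56.0). Blk, a B-cell kinase, had 1 at its promoter (33.9), Syk (annotated as Sykb) 1 at 2624 bp (33.1) and Dok3 1 at 14993 bp, over the Pdlim7 promoter (19.7). Pax5 (11 sites, all of them pre-B alone) and Cd79a (6 sites) had none.

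Genes of cohesin and CTCF had 9 of 56 sites (16.1%, interval 7.62 to 28.3%) and general cellular genes 8 of 79 (10.1%, interval 4.47 to 18.98%), both around the background. The strongest of the first group was at the promoter of Esco1, an acetyltransferase that locks cohesin on DNA, at DP percentile 61.4 with CTCF at the 94.1 percentile in pre-B and 87.9 in IL7-cultured cells. Sites near Mau2 (57.1), Ctcf (45.3) and Nipbl (42.2) followed. Among general genes, the promoters of Tuba1b (68.3), Tfrc (67.0), Ywhaz (63.0) and Sdha (51.6) ranked highest, all with CTCF in the IL7 list alone.

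**Figure D4:**
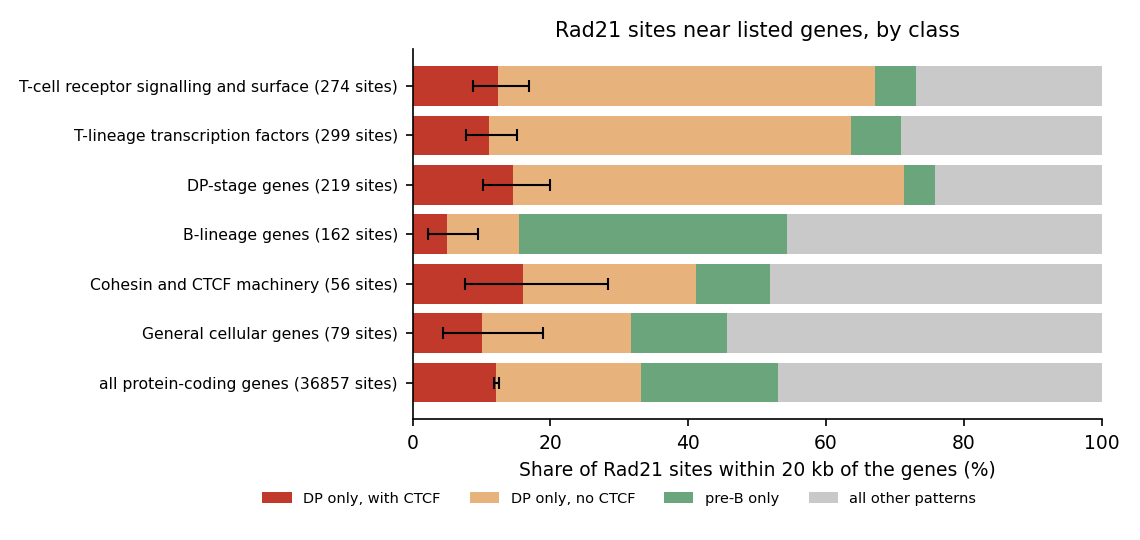
Rad21 sites within 20 kb of the genes of each list (rows, with the number of sites), split by class as a share in % (x axis). Black lines are exact 95% intervals of the share of DP-only CTCF sites (red), which was 12.4%, 11.04% and 14.6% near the 3 T lists, 4.94% near B-lineage genes and 12.2% near all protein-coding genes.

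The largest gathering of DP-only CTCF sites was in the TCRα/δ locus, where 53 of 180 Rad21 sites belonged to the class (29.4%, interval 22.9 to 36.7%, against 11.5% of all merged sites). The 2 windows of 1 Mb with the most such sites in the genome, 27 and 26, were both there. CTCF was in both lists at 39 of the 53 and in the IL7 list alone at 14, and the median DP percentile was 63.1 (5.92 to 96.1). Of the 125 sites in the locus called in DP alone, 72 had no CTCF. The share was 38.1% in the first of 3 equal parts of the locus by coordinate (16 of 42), 28.2% in the middle (20 of 71) and 25.4% in the last (17 of 67).

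The 3 strongest of these were the site at the 96.1 percentile described above, 38706 bp from the V gene Gm17015, a site over Trav18 (92.0) and one 11796 bp from Trav6d-7 (89.8). Each had CTCF in the IL7 list alone, at the 34.6, 26.9 and 6.04 percentiles. In contrast the copies near Gm13953 and Trav6d-3 shown above had DP percentiles of 59.1 and 49.0 with CTCF in both lists, at 91.6 and 88.6 in the IL7 list. The motif stood in 33 of the 53 sites, on the minus strand in 32 and on the plus strand in 1. At the other Rad21 sites of the locus it was on the minus strand in 18 and on the plus strand in 8. The locus holds long copies of itself, and 32 of the 53 sites had more than 50% of their words of 36 bases repeated within it (median 65.7%). Since reads that fit several copies were kept, such sites may share reads and are not independent counts, and the part of this in the number of sites was not tested. With the Rad21 lists of equal length 22 sites of the locus met the rule.

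**Figure D5:**
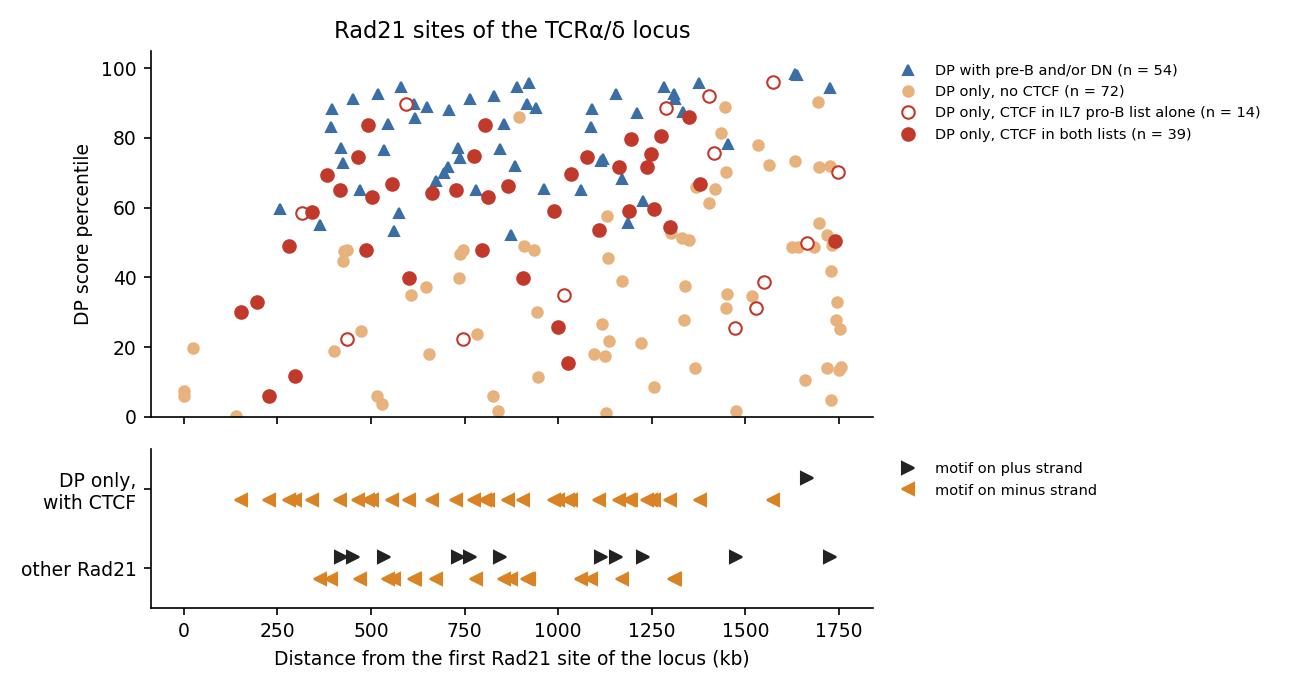
Rad21 sites of the TCRα/δ locus by distance from the first site in kb (x axis). Above, the DP score percentile of each DP-called site (y axis) by class. Below, sites with the CTCF motif by the strand of the match, which was minus at 32 of 33 DP-only CTCF sites with an unambiguous match. Other Rad21 sites that matched equally well on both strands are drawn as plus.

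The other AgR loci held smaller numbers, to be read against the 11.5% of all merged sites. In TCRβ, 8 of 31 sites were DP-only CTCF sites (25.8%), with an interval of 11.9 to 44.6% that began just above that share. They were led by sites 945 bp from Trbv31 (DP percentile 69.5, IL7 CTCF at 68.6), 4026 bp from Trbv12-1 (63.1) and over Trbv20 (52.4). In Igh, 11 of 120 were (9.17%, interval 4.67 to 15.8%, which took in the 11.5%), led by a site at the 92.0 percentile 1339 bp from the V gene Gm7175. That site was the only one of the 11 in the top 25% of the DP list, and those near Gm16965 (60.8) and Ighv1-71 (51.9) came next. All 5 motif matches in the Igh sites were on the plus strand, as were 74 of 75 at the other Igh sites. TCRγ had 1 of 7, over Tcrg-V3 (27.9), while Igκ had 0 of 62 (up to 5.78%) and Igλ 0 of 5 (up to 52.2%). With the Rad21 lists of equal length TCRβ had 1, Igh 4 and TCRγ 0. The paper lists cohesin in DN as well as DP thymocytes at a CTCF site between the TCRβ enhancer and Trbv31 (its Vβ31). Whether that is the site near Trbv31 named above was not tested.

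Elsewhere the sites were spread over the genome. Their share of Rad21 sites went from 10.0% on chromosome 10 to 13.2% on chromosome 15. By number within the gene body, Gm20388 led with 35 of 294 Rad21 sites, but this annotated span is 4435 kb long and covers many other genes. The annotated span of Fgfr2 is 3009 kb and that of Eif4e3 409 kb. Sites within such spans may belong to other genes. Eif4e3 had 7 of 50, followed by Fgfr2 (6 of 74), Jazf1 (6 of 20), Sept9 (6 of 26), Syne1 (6 of 14), Arhgef10 (5 of 14) and Arid1b (5 of 37). Against the 11.5% of all merged sites, these were 11.9% for Gm20388, 14% for Eif4e3, 8.11% for Fgfr2 and between 13.5% and 42.9% for the others. Arhgef10 and Arid1b were tied at 5 sites with genes not named here, among them Dnahc8 (5 of 7, 71.4%). Eif4e3 is a cap-binding protein and Arid1b a subunit of a chromatin remodelling complex. Most DP-only CTCF sites stood alone between other Rad21 sites, 3637 of them, and 563 pairs stood next to each other. The longest runs held 6 sites. One, from Eapp to Snx6 on chromosome 12 (chr12:55796471-55831179), had 0 sites with CTCF in both lists and DP percentiles of 34.3 to 73.6. The other lay in the interferon alpha cluster on chromosome 4 (chr4:88434157-88476875), with all 6 in both CTCF lists and DP percentiles of 8.70 to 49.7; its near-identical gene copies can share reads. Next came 7 runs of 5 sites, tied in number, and the one named by rule lay within 6.352 kb at Phf15 on chromosome 11.

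Membership turned on how deep each list goes. With the 3 Rad21 lists of equal length, 1600 sites met the rule, but only 394 of them (24.6%) were among the 5219, and the other 1206 all overlapped a pre-B peak of the deposited list, which this setting shortens. With scores of at least 100, 3265 sites met it, of which 2024 were among the 5219, and the TCRα/δ locus then had 59.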

How the data were processed

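ChIP-seq peak lists of 5 libraries (2 for CTCF, from B-lineage cells, and 3 for Rad21) were analysed. The authors removed duplicate reads, aligned reads to mm9, keeping those that map to a few places, and called peaks against input in each library; the submitters' processing notes name Bowtie 0.12.9 and MACS 1.4.2. Pre-B CTCF and Rad21 share 1 input. The deposited files give each peak's position and its score from the peak caller. Because this score rises with depth, it served only to rank peaks within a list; read numbers are unknown and bear on every absence of a peak.

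Peaks of chromosomes 1 to 19 were merged and intersected at 1 bp. Genes are GENCODE vM1 on the same build. The de novo HOMER motif (12 bases) was taken from the study's motif sheet and searched on both strands of the central 300 bp and of windows 2000 bp away, with at most 2 mismatches. Repeats were counted as words of 36 bases. Intervals are Clopper-Pearson at 95%. Of the genes in the 6 lists, Gfi1, Sh2d1a, Btk, Pgk1 and Hprt were unmatched or not autosomal. The members and lists were chosen with earlier results of these data known. Genes were named by rule: the 12 highest DP scores, the 4 best genes of each list, the 8 genes with the most sites, the 3 best sites of each AgR locus and the 3 longest runs; 1 of the 12 is not reported here. Alternatives were scores of at least 100, equal list lengths, 50% or midpoint overlap, merging at 500 bp, other motif limits and other distances to genes. The methods were tested on simulated data. Python 3.11.15, numpy 2.4.6, scipy 1.17.1, pandas 2.3.3, pysam 0.24.0 and matplotlib 3.10.9 were used.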

Additional observations from a re-analysis of the deposited data

How the results depend on the processing

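No paired analysis was possible because each antibody and cell type has 1 library. The number of DP-only CTCF sites stayed within 1.5 times of 5219 with 50% overlap (4990), midpoints (4590) and merging at 500 bp (4808). It was 3265 with scores of at least 100 and 1600 with Rad21 lists of equal length; among alternatives added after seeing the data, it was 394 with the DP list alone limited to 9701 peaks, 3413 with CTCF lists of equal length and 2786 with pre-B CTCF alone. The share with CTCF in both lists was 58.1% with scores of at least 100, 60.2% with CTCF lists of equal length and 77.5% with equal Rad21 lists. The median DP percentile was 54.0 with scores of at least 100, 81.0 with equal lists and 35.6 with merging at 500 bp. The share with the CTCF motif was 5.73% at 1 mismatch, 71.9% at 3 mismatches (27.02% in neighbouring windows), 21.4% for the second motif of the study's sheet, EMBL_M1, at 3 mismatches, 32.2% over the whole CTCF peak and, added later, 29.7% away from promoters. The promoter share was 44.3% within 2.5 kb, 42.0% with starts of all genes and, added later, 43.4% with the DP list alone limited. With equal Rad21 lists the share near listed genes was 22.1% for receptor signalling, 19.8% for transcription factors, 21.1% for DP-stage and 10.8% for B-lineage genes; for general genes it was 20% over gene bodies alone. Among settings added later, the DP list alone limited gave 5.93%, 2.99% and 7.53% for the 3 T lists and 0 sites for B-lineage, cohesin and general genes, and scores of at least 100 gave 1.85% for general genes. With equal lists the sites in TCRα/δ, Igh and TCRβ were 22, 4 and 1, and in TCRγ 0 with equal lists and 0 with scores of at least 100. Score and length limits leave fewer peaks by construction; beyond that, the cause of these changes was not tested. The other 29 of 65 alternative values stayed within the interval of the main value or within 1.5 times of its count. Depth limits every statement that Rad21 was not called.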
